A study of Rattus norvegicus with 2 samples.

Results

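Myelinating Schwann cells (SCs) of the rat dorsal root ganglion (DRG) were examined in 2 single-cell RNA libraries, 1 from rats with diabetic peripheral neuropathy (DPN) and 1 from control rats. The cells were chosen by their reads. A barcode was kept if it held at least 1000 UMIs (unique molecular identifiers, each standing for 1 captured RNA molecule) and under 20% of them from genes with the Mt- prefix. It was then selected if Prx, Mag and Cldn19 together reached 5 or more UMIs per 10000 and 3 or more raw UMIs, with Fabp7 and Tyrp1 (satellite glia) under 12 per 10000 and Cldn5, Flt1 and Cdh5 (endothelium) under 5 per 10000. This selected 379 DPN and 283 Control cells, 662 in all, among 20811 kept barcodes and 24179 deposited ones.

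The study asked how the cells of the DRG differ in a rat model of DPN. DPN rats were male Sprague-Dawley (SD) rats given a single intraperitoneal injection of 65 mg/kg streptozotocin, which destroys pancreatic beta cells, dissolved in citrate buffer. Control rats were male SD rats injected with citrate buffer alone. Rats were bought at 8 weeks of age, and bilateral lumbar DRGs were taken after 8 weeks of diabetes. The ganglia of 5 rats were pooled for each library, so that each condition was 1 sample. The difference between rats could therefore not be measured, and no test between conditions was possible. Every interval given here is a 95% interval for counting error only: Poisson for a level, conditional binomial for a ratio, and Clopper-Pearson for a share.

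A myelinating SC wraps a single axon segment in a spiral of membrane. Proteins such as Pmp22 and Mbp build the compacted layers, and Mag and the gap junction protein Gjb1 sit in the uncompacted channels. The outer surface is divided into Cajal bands held open by periaxin (Prx) and Drp2 and anchored to the basal lamina, while gliomedin (Gldn) gathers sodium channels at the node of Ranvier. The programme is driven by Sox10, Pou3f1 and Egr2 (Krox20). In diabetic neuropathy, slowed nerve conduction and lipid and polyol changes in SCs are classical findings.

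The myelinating SCs were 3.44% (3.11 to 3.8%) of kept barcodes in the DPN library and 2.89% (2.57 to 3.24%) in the Control library. These shares changed order with the mitochondrial limit, being 1.61% in DPN and 2.60% in Control at a limit of 10%. The DPN library held 1992016 UMIs in these cells and the Control library 1988339. The median depth was 4182 UMIs per DPN cell and 5234 per Control cell, with a median of 1500 genes in DPN and 1617 in Control. Mt- genes took 14.3% of UMIs in DPN and 13.2% in Control, and the clone-named AY172581 genes 6.12% in DPN and 4.08% in Control. Over all barcodes the DPN library had 115409375 UMIs and the Control library 121101966. The libraries shared 38 barcode sequences, which 2 of the selected cells carried, and no barcode was selected in both.

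Levels were summed over the cells of a library and given as CPM, a scale on which all UMIs of those cells add up to the same total in each library. A gene's level was compared between cells and not with that of another gene. Of the rule genes, 187 DPN and 181 Control cells held all 3, 162 DPN and 91 Control cells held 2, and 30 DPN and 11 Control cells held 1. Only 5 DPN and 2 Control cells lacked a UMI of every one of Drp2, Gldn and Pou3f1, markers that the rule did not use. Their summed rule markers had a median of 16.9 per 10000 in DPN cells and 16.1 in Control cells. Just outside the limit, at 4 to 5 per 10000, were 6 cells of each library, with 37.6 CPM of Drp2 in DPN and 18.3 in Control. Just inside, at 5 to 6 per 10000, were 3 DPN cells with 165 CPM of Drp2 and 2 Control cells with none.

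The label was set beside genes outside the rule. The 4 comparison gates were cut from the same libraries: satellite glia (2947 DPN and 4077 Control cells), SCs with Scn7a or Cdh19 (2810 DPN and 1048 Control cells), SCs with Igfbp3, Nes or Fgf2 (523 DPN and 688 Control cells), and endothelial cells (1182 DPN and 776 Control cells). Drp2, the partner of periaxin at the outer membrane, was at 380 CPM in DPN and 210 CPM in Control myelinating SCs. It reached at most 2.89 CPM in DPN and 1.74 CPM in Control in any comparison gate, a fold of at least 120 in both libraries. Gldn, at 431 CPM in DPN and 325 CPM in Control, stood at least 73.9-fold above every comparison gate. Pou3f1 was only 3.46-fold above the next gate, since it was at 278 CPM in DPN and 193 CPM in Control in the Igfbp3/Nes/Fgf2 gate.

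Genes outside the marker lists set the cells apart as sharply, as a description of the groups the rule had made. The proline and glycine transporter Slc36a2 was at 157 CPM in DPN and 140 CPM in Control (at least 123-fold above every comparison gate). Kcna1, a voltage-gated potassium channel, was 115-fold above, and its partner Kcna2 34.0-fold. Bcas1, a protein of myelinating glia, was 103-fold above, the membrane peptidase Mme 77.0-fold and the potassium leak channel Kcnk1 54.0-fold. Nfasc, whose glial form binds axons beside the node, was 53.7-fold above, and Ncmap, a protein of noncompact myelin, 52.1-fold. By contrast Egr2 and Sox10 were 1.10-fold and 1.18-fold above the next gate in Control, the library with the lower fold. Egr2 was at 433 CPM in DPN and 254 CPM in Control, against 281 CPM in DPN and 232 CPM in Control in Scn7a/Cdh19 SCs. Sox10 was at 139 CPM in DPN and 143 CPM in Control, against 110 CPM in DPN and 121 CPM in Control there. Neither regulator set the cells apart as sharply as the genes above.

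**Figure D1:**
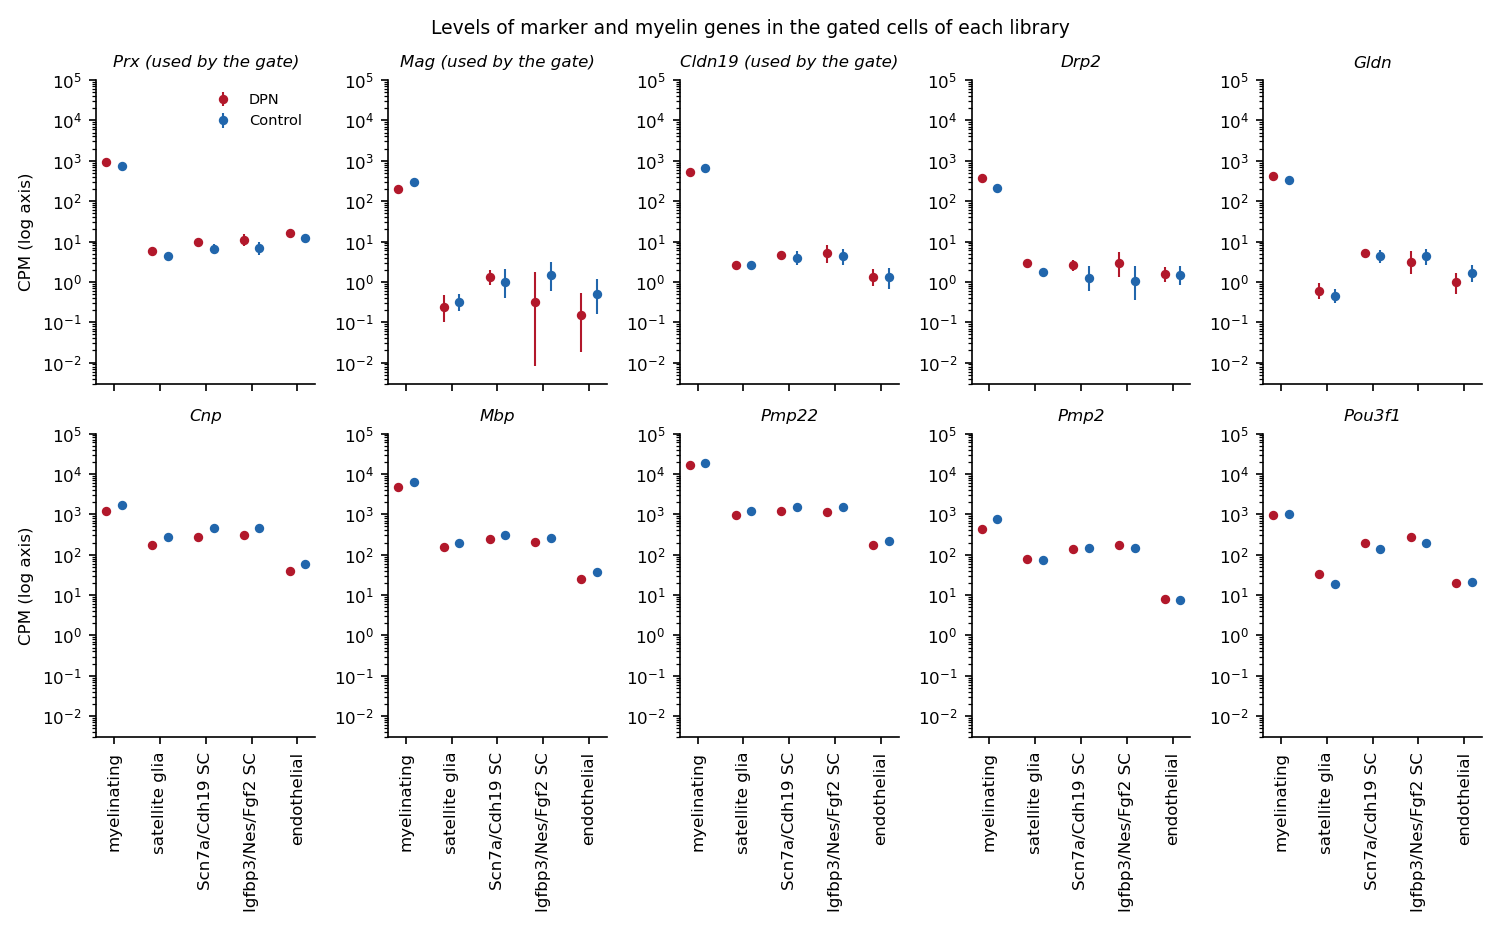
Level of the rule genes, of markers the rule did not use and of myelin genes, in CPM on a log axis with 95% Poisson intervals, in myelinating SCs and the 4 comparison gates, with DPN left of Control for each. Myelinating SCs held 380 CPM of Drp2 in DPN and 210 CPM in Control, while no comparison gate passed 2.89 CPM.

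Transcripts used as markers of other cell types were present as well. Fabp7, a marker of satellite glia that the rule limited, was at 45.7 CPM in DPN and 68.9 CPM in Control. The 10 neuronal markers summed to 913 CPM in DPN and 350 CPM in Control, and all 10 were higher in DPN in level. Their sums were higher in DPN in all 4 comparison gates too, by 1.68-fold in satellite glia, 2.08-fold in Scn7a/Cdh19 SCs, 1.82-fold in Igfbp3/Nes/Fgf2 SCs and 1.42-fold in endothelial cells, against 2.61-fold in myelinating SCs. Fibroblast markers summed to 520 CPM in DPN and 493 CPM in Control. Among them Dcn was higher in DPN (1.98), while Col1a1 was not called (0.838). Sums were smaller for markers of endothelium (52.7 CPM in DPN, 22.1 CPM in Control), mural cells (146 CPM in DPN, 71.9 CPM in Control) and macrophages (38.2 CPM in DPN, 13.1 CPM in Control). The rule itself limited the endothelial markers Cldn5, Flt1 and Cdh5. The part of free RNA in the differences described here was not tested.

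A gene was called higher or lower in DPN if its ratio of DPN over Control was at least 1.5 or at most 0.667, with a 95% interval that left out 1. Of 6050 genes with 50 or more summed UMIs, 1115 (18.4%) were higher and 330 (5.45%) lower. After division by the median ratio of all genes, 900 were higher and 544 lower. The median log2 ratio was 0.09. The calls followed gene length. Genes were split into 4 groups of equal size by their span on the chromosome. In group 4, with the longest span (median 99.0 kb), 39.4% were higher and 1.23% lower, with a median log2 ratio of 0.52. In group 1, with the shortest (median 4.79 kb), 4.93% were higher and 11.2% lower, with a median log2 ratio of -0.24. The comparison gates showed the same gradient, with medians between 0.38 and 0.47 in group 4 and between -0.22 and -0.14 in group 1. The part of gene length in any single difference was not tested. Counts of list members below are therefore given with the span of the list and the share called among genes of like span. Where a list had no span, the share of all genes is given.

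**Figure D2:**
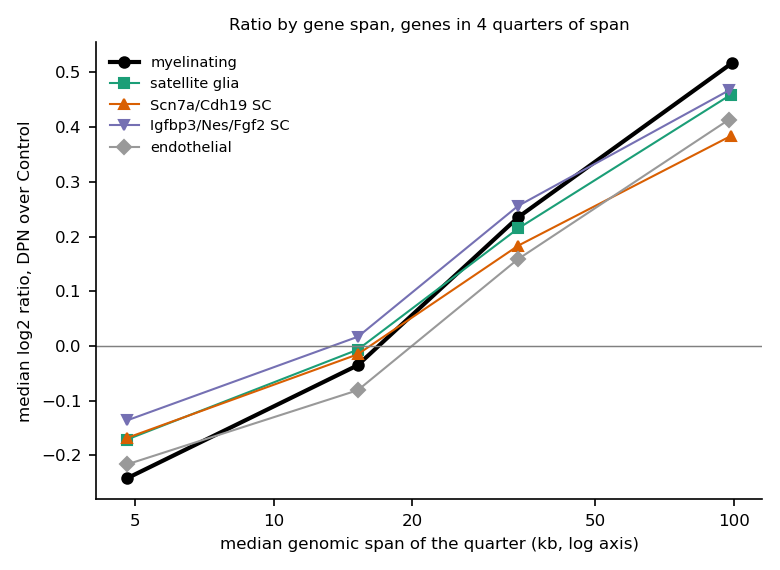
Median log2 ratio of DPN over Control (vertical axis) against median gene span (horizontal axis, kb on a log scale) for 4 groups of genes by span in myelinating SCs and the 4 comparison gates. The median went up with span in myelinating SCs, with -0.24 in group 1 and 0.52 in group 4, and in every comparison gate.

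Of 10 structural genes of compact myelin tested, 1 was lower in DPN and none higher, with a median log2 ratio of -0.21 (median span 26.9 kb, where 6.31% of span group 2 and 2.47% of group 3 were lower). Mbp, which joins the cytoplasmic faces, was at 4741 CPM in DPN and 6220 CPM in Control (0.762, 0.742 to 0.783). Pmp22, the gene duplicated in the commonest inherited demyelinating neuropathy, was at 17028 CPM in DPN and 18705 CPM in Control (0.910). Mal, a proteolipid of myelin, was at 1681 CPM in DPN and 1539 CPM in Control (1.09, 1.04 to 1.15) and was not called. The exception was Pmp2, a fatty acid binding protein of the myelin membrane, at 422 CPM in DPN and 776 CPM in Control, a ratio of 0.543 (0.499 to 0.591). Pmp2 stayed lower under every alternative tried. Its ratio was 0.952 in Scn7a/Cdh19 SCs, 1.21 in Igfbp3/Nes/Fgf2 SCs and 1.06 in satellite glia.

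In thinned cells (each reduced at random to 2000 UMIs, 357 DPN and 271 Control cells left, 22 DPN and 12 Control cells too shallow and set aside) Pmp2 had a UMI in 20.4% of DPN and 33.2% of Control cells. Before thinning it was found in 28.8% of DPN and 48.1% of Control cells. The share in thinned endothelial cells, which should lack it, was 1.04% in DPN and 2.10% in Control. Unthinned median depths there were 8926.5 UMIs in DPN and 10376.5 UMIs in Control. Pmp2 was uneven as well as lower. The 18 DPN cells richest in it (top 5%) held 64.7% of its UMIs and the 14 richest Control cells 48.1%, whereas for Cnmd, at a similar thinned level, these shares were 33.0% in DPN and 22.1% in Control.

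Of 13 genes of noncompact myelin and the adaxonal membrane, 2 were higher and none lower, with a median log2 ratio of 0.06 and a median span of 60.8 kb, against 20.8% higher in span group 3 and 39.4% in group 4. Gjb1, the connexin of the incisures, was at 194 CPM in DPN and 203 CPM in Control (0.956, 0.830 to 1.10). Cnp, an enzyme of the cytoplasmic channels, was at 1220 CPM in DPN and 1716 CPM in Control, a ratio of 0.711 that missed the fold. Tjp1, a tight junction scaffold, was at 379 CPM in DPN and 181 CPM in Control (2.09, 1.84 to 2.38), and Mpdz, another PDZ scaffold, was also higher (1.87, 1.44 to 2.43). The selection genes are given without weight, since the rule fixed them in part. Prx was at 950 CPM in DPN and 728 CPM in Control, Mag at 202 CPM in DPN and 300 CPM in Control, and Cldn19, the SC claudin, at 540 CPM in DPN and 664 CPM in Control. In cells selected instead on Drp2 and Gldn, a rule chosen after seeing the data (264 DPN and 157 Control cells), Prx had a ratio of 1.22 (1.13 to 1.33), Mag 0.681 (0.582 to 0.797) and Cldn19 0.783 (0.711 to 0.862). None of these passed the fold. The gate on Drp2, Gldn and Pou3f1, which does not use Mag either, held 1019 DPN and 693 Control cells. Of these, 334 DPN and 242 Control cells were also in the main selection, so most were other cells. Mag was lower in this wider gate, with a ratio of 0.593 (0.520 to 0.676). Mag was also called lower with median-ratio scaling (0.634), without mixed barcodes (0.618), with AY172581 counted as mitochondrial (0.641) and without the deepest 5% of cells (0.644). Those settings still select cells on Mag, so their calls carry no weight either.

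Genes of the Cajal bands and the basal lamina were higher in DPN in 7 of 18 cases and lower in none, with a median log2 ratio of 0.45. Their median span was 69.1 kb, between those of span group 3, of which 20.8% were higher, and group 4 with 39.4%. The same list had 9 of 18 higher in satellite glia and 6 of 18 in Scn7a/Cdh19 SCs. It had 7 of 17 higher in Igfbp3/Nes/Fgf2 SCs and 6 of 17 in endothelial cells, so the count was not particular to myelinating SCs. Drp2 had 756 UMIs in DPN and 417 in Control and a ratio of 1.81 (1.60 to 2.04). With the mitochondrial limit at 10%, which left 54 DPN and 62 Control cells, its ratio was 1.45 and missed the fold. Utrophin (Utrn), which ties actin to dystroglycan at the outer membrane, was at 432 CPM in DPN and 201 CPM in Control (2.15, 1.90 to 2.42). Col4a1, a chain of basal lamina collagen, was at 488 CPM in DPN and 226 CPM in Control (2.16, 1.93 to 2.42), and its partner Col4a2 at 51.7 CPM in DPN and 16.6 CPM in Control. The laminin chains Lama2 (1.79, 1.37 to 2.35) and Lama4 (2.20, 1.56 to 3.15) and the sarcoglycan Sgcb (1.63, 1.32 to 2.02) were higher too. Dystroglycan itself, Dag1, was at 707 CPM in DPN and 616 CPM in Control, a ratio of 1.15. Utrn and Col4a1 were likewise higher in satellite glia (1.77 and 1.95) and in Scn7a/Cdh19 SCs (2.02 and 1.78).

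Genes of the node and its borders were higher in DPN in 4 of 10 cases and lower in none, with a median log2 ratio of 0.47 and a median span of 122 kb. That count is the share of span group 4, of which 39.4% were higher, and is no result about the node. The 4 were the spectrins Sptbn1 (387 CPM in DPN, 145 CPM in Control, 2.66, 2.32 to 3.06) and Sptan1 (343 CPM in DPN, 158 CPM in Control, 2.16), and the ankyrins Ank2 (3.82, 2.62 to 5.71) and Ank3 (2.63, 1.52 to 4.72). Gldn missed the fold, with a ratio of 1.33 (1.2 to 1.47), as did Nfasc with 1.26 (1.04 to 1.54). Sptbn1 was also higher in all 4 comparison gates, by 2.07-fold to 3.09-fold. The median of the node list was 0.47 here against 0.69 to 0.76 in the comparison gates.

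**Figure D3:**
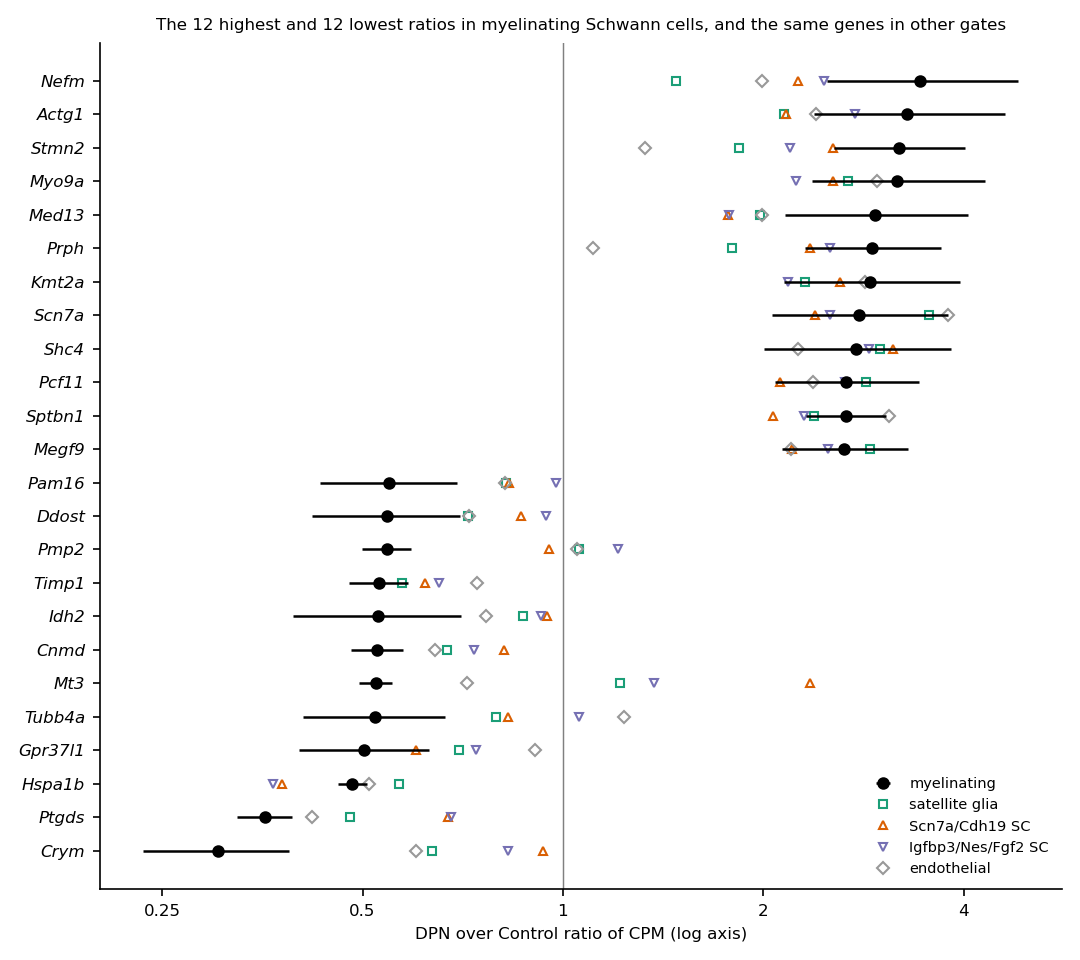
Ratio of DPN over Control on a log axis for the 12 highest and the 12 lowest ratios among called genes with 200 or more UMIs in myelinating SCs (filled points, with 95% counting intervals) and for the same genes in the 4 comparison gates (open marks). Sptbn1 was right of 1 in all 5, while Mt3 was at 0.523 in myelinating SCs and 2.35 in Scn7a/Cdh19 SCs.

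Among 17 tested ion channels and pumps, 6 were higher and 2 lower, against 18.4% and 5.45% of all genes. Their median span was 24.9 kb. In span group 2, 8.91% were higher and 6.31% lower, and in group 3, 20.8% and 2.47%. The same list had 6 of 16 higher in satellite glia and 5 of 14 in Scn7a/Cdh19 SCs. It had 3 of 13 higher in Igfbp3/Nes/Fgf2 SCs and 1 of 13 in endothelial cells. Kcna1 was at 261 CPM in DPN and 142 CPM in Control (1.84, 1.59 to 2.13), and Kcna2 at 257 CPM in DPN and 148 CPM in Control (1.73, 1.5 to 2.01). Both channels are textbook markers of the axon beside the node. Their transcripts were near 0 in every comparison gate, at most 2.26 CPM of Kcna1 and 7.56 CPM of Kcna2. No comparison gate was of neurons, and a neuronal source of these transcripts was not tested. Thinned cells held a UMI of Kcna1 in 35.6% of DPN and 21.0% of Control cells, against 0.188% of DPN endothelial cells and 0 of 715 Control ones, which allows a share of up to 0.515%. Unthinned shares of Kcna1 were 55.4% in DPN and 50.9% in Control. The call on Kcna1 was lost at the 10% mitochondrial limit (ratio 1.18), and that on Kcna2 there, in the gate on Drp2, Gldn and Pou3f1, and with AY172581 counted as mitochondrial. A pair of sodium pump regulators went the other way. Fxyd6 was at 715 CPM in DPN and 1248 CPM in Control (0.573, 0.537 to 0.612), and Fxyd3 at 307 CPM in DPN and 498 CPM in Control (0.616, 0.556 to 0.682). The ratio of Fxyd3 was 0.345 at the 10% mitochondrial limit. Fxyd6 was lower under every alternative, with ratios between 0.503 and 0.642. Its level was 15.6-fold above every comparison gate, where its ratios lay between 0.933 and 1.13. The other 4 higher genes were Scn7a, described below, and, from few UMIs, the purine receptor P2rx7 (2.99), the cation channel Trpm3 (2.76) and the connexin Gjc3 (1.66), which lost its call in 4 of 11 alternatives. The pump subunit Atp1b3, at a ratio of 1.18, was not called.

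Of 10 tested transcription factors that promote it, 6 were higher in DPN and none lower, with a median log2 ratio of 0.73 and a median span of 19.3 kb, against 8.91% and 20.8% of genes called higher in span groups 2 and 3. The same list had 6 of 10 higher in Igfbp3/Nes/Fgf2 SCs (median 0.75), 5 of 10 in satellite glia (0.69), 4 of 10 in Scn7a/Cdh19 SCs (0.40) and 3 of 10 in endothelial cells (0.42). Egr2, the central activator of myelin genes, was at 433 CPM (862 UMIs) in DPN and 254 CPM (506 UMIs) in Control, a ratio of 1.70 (1.52 to 1.90). Nab1, the corepressor that binds Egr2, had a ratio of 2.03 (1.49 to 2.80). Zeb2 (204 CPM in DPN, 109 CPM in Control, 1.88) and Yy1 (107 CPM in DPN, 58.8 CPM in Control, 1.82) were higher, and so were the Hippo pathway factors Tead1 (3.54, from 71 UMIs in DPN and 20 in Control) and Wwtr1 (1.62). Neither upstream factor was called. Sox10 was at 139 CPM in DPN and 143 CPM in Control, a ratio of 0.970 (0.819 to 1.15), and Pou3f1 at 963 CPM in DPN and 1026 CPM in Control, a ratio of 0.938 (0.881 to 0.999). Egr2 missed the fold in 2 alternatives, at 1.42 in the gate on Drp2, Gldn and Pou3f1 and at 1.47 with the mitochondrial limit at 10%. Its ratio was 1.30 in satellite glia and 0.993 in endothelial cells.

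Of 21 genes of the immature and repair SC programmes, 8 reached the minimum of UMIs, and none was called. The median span of those 8 was 3.45 kb, and in span group 1 4.93% of genes were higher and 11.2% lower. Of 21 immediate early genes, 2 were higher, Egr2 and Klf6 (1.65, lost in 4 of 13 alternatives), and none lower. The median span of the list was 3.8 kb, against 4.93% of span group 1 and 18.4% of all genes called higher. The same list had 8 of 21 higher in satellite glia and 4 of 21 in Scn7a/Cdh19 SCs. It had 4 of 21 higher in Igfbp3/Nes/Fgf2 SCs and 5 of 21 in endothelial cells. Fos (5105 CPM in DPN, 3636 CPM in Control), Egr1 (1927 CPM in DPN, 1301 CPM in Control) and Jun (3282 CPM in DPN, 2557 CPM in Control) had ratios of 1.40, 1.48 and 1.28 and missed the fold. The injury marker Atf3 was at 1279 CPM in DPN and 1201 CPM in Control. Of 8 receptors of axonal signals tested, Gpr37l1, a receptor of glia, was lower (60.7 CPM in DPN, 121 CPM in Control, 0.503) and Fgfr1 higher from 36 UMIs in DPN and 14 in Control. The median span of the 8 was 46.8 kb, and in span group 3 20.8% of genes were higher and 2.47% lower. The neuregulin receptor subunit Erbb3 was at 152 CPM in DPN and 131 CPM in Control (1.16, 0.979 to 1.37).

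Of 20 genes of myelin lipid synthesis, 4 were higher and 1 lower, close to the 18.4% and 5.45% of all genes. Their median span was 30.5 kb, and in span group 3 20.8% were higher and 2.47% lower. The ether lipid enzymes Agps (1.66, 1.2 to 2.31) and Far1 (1.56, 1.25 to 1.96) and the first enzyme of sphingolipid synthesis, Sptlc2 (3.13, from 47 UMIs in DPN and 15 in Control), were higher, and so was the phosphatidate phosphatase Lpin1. Far1 lost its call in 6 of 15 alternatives and Agps in 2 of 13. Elovl1, which makes very long chain fatty acids, was at 197 CPM in DPN and 331 CPM in Control (0.596, 0.525 to 0.677). Ugt8, the enzyme of galactosylceramide, was at 546 CPM in DPN and 393 CPM in Control, a ratio of 1.39 that missed the fold. Cholesterol synthesis gave 1 lower gene of 19, Mvd, from 27 UMIs in DPN and 45 in Control, which lost its call in 5 of 10 alternatives. None of the 19 was higher. Their median span was 18.5 kb, and in span group 2 8.91% were higher and 6.31% lower.

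Genes of glucose use went both ways, 3 of 22 higher and 3 lower (median span 15 kb, where 8.91% of span group 2 were higher and 6.31% lower). Txnip, an inhibitor of thioredoxin and of glucose uptake whose transcription follows glucose, was at 597 CPM in DPN and 241 CPM in Control (2.47, 2.22 to 2.76). Thinned cells held a Txnip UMI in 61.3% of DPN and 31.7% of Control cells. Unthinned, the shares were 77% in DPN and 56.9% in Control. Endothelial cells, which express it strongly, held one in 81.5% in DPN and 78.3% in Control. With the mitochondrial limit at 10% the Txnip ratio was 1.54. It was 4.64 in satellite glia, 3.15 in Scn7a/Cdh19 SCs and 1.24 in endothelial cells. The monocarboxylate transporter Slc16a1, through which SCs pass lactate, was at 52.7 CPM in DPN and 30.2 CPM in Control (1.75). Lactate dehydrogenase B, Ldhb, was at 517 CPM in DPN and 791 CPM in Control (0.654, 0.604 to 0.707), and Gapdh at 103 CPM in DPN and 156 CPM in Control (0.661). Gapdh lost its call in 9 of 15 alternatives, Tpi1, the third lower gene, in 6 of 12, and Ldhb in 4 of 15.

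The nuclear genes of oxidative phosphorylation were lower in 5 of 23 cases and higher in none, with a median log2 ratio of -0.47. Their median span was 7.17 kb, in the range where 11.2% of genes (span group 1) and 6.31% (group 2) were lower. Cox8a, a subunit of cytochrome oxidase, was at 512 CPM in DPN and 823 CPM in Control (0.622, 0.575 to 0.673), and Ndufa4 at 326 CPM in DPN and 536 CPM in Control (0.608). The complex III subunits Uqcrb (0.635) and Uqcrc2 (0.633) and Cox6b1 (0.656) were the others. Uqcrc2 lost its call in 6 of 15 alternatives, Cox6b1 in 5, Uqcrb in 4, Ndufa4 in 3 and Cox8a in 1. The list's median was also below 0 in the comparison gates, between -0.31 and -0.22. Of 13 genes of the mitochondrial genome, which were given no span, 3 were higher against 18.4% of all genes, with a list median of 0.15. These were Mt-nd6 (98.4 CPM in DPN, 38.2 CPM in Control, 2.57), Mt-atp8 (197 CPM in DPN, 90.5 CPM in Control, 2.17) and Mt-nd5 (1.53), which lost its call in 6 of 15 alternatives. The abundant Mt-co3 was not called, at 28107 CPM in DPN and 25394 CPM in Control. Ribosomal protein genes, of which 3 of 26 were lower and none higher, had a median of -0.33. Their median span was 3.66 kb, and 11.2% of span group 1 were lower.

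**Figure D4:**
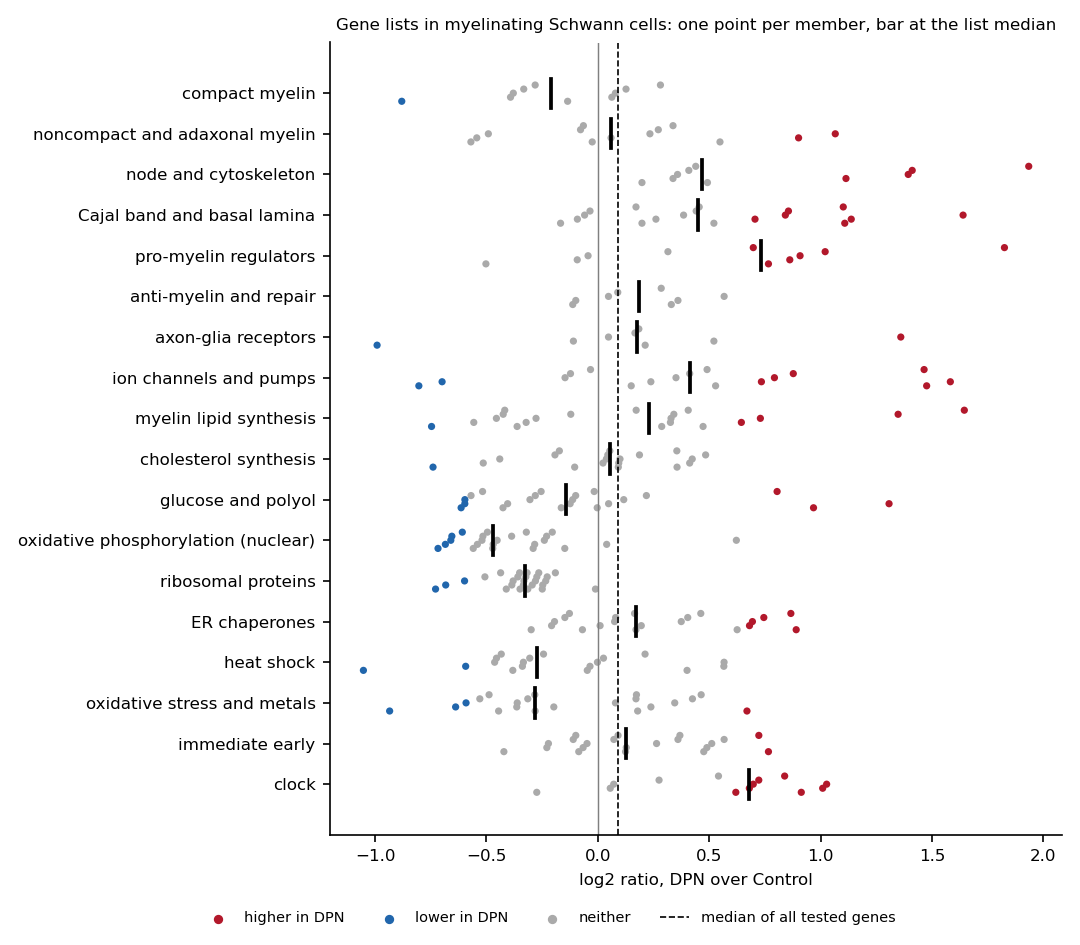
Log2 ratio of DPN over Control for each tested gene of the named lists in myelinating SCs, coloured by call, with the median of each list as a bar and that of all tested genes (0.09) as a dashed line. The clock and promyelin lists lie mostly above 0 (medians 0.68 and 0.73), and nuclear oxidative phosphorylation below it (-0.47).

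Of 21 chaperones and quality control genes of the endoplasmic reticulum, 5 were higher in DPN and none lower (median span 12.1 kb, against 18.4% of all genes and 8.91% of span group 2). Hspa5 (BiP), the main chaperone there, was at 1433 CPM in DPN and 786 CPM in Control (1.82, 1.71 to 1.94), and Hsp90b1 at 628 CPM in DPN and 375 CPM in Control (1.68, 1.53 to 1.84). Both were higher in all 4 comparison gates too, Hspa5 by 1.75-fold to 3.03-fold and Hsp90b1 by 1.64-fold to 2.74-fold. At the 10% mitochondrial limit the ratios of Hspa5 (1.48) and Hsp90b1 (1.45) missed the fold. The others called were Hyou1 (1.85), Sel1l (1.62) and Syvn1 (1.60). They kept their calls in 12 of 12, 10 of 13 and 5 of 12 alternatives, in that order. Among the comparison gates, this list had 8 of 21 higher in satellite glia and 8 of 21 in Scn7a/Cdh19 SCs. It had 9 of 21 higher in Igfbp3/Nes/Fgf2 SCs and 3 of 21 in endothelial cells. Ddit3, the stress factor CHOP, was at 341 CPM in DPN and 378 CPM in Control (0.903, 0.812 to 1.0). Of 18 cytosolic heat shock genes, none was higher and 2 were lower, near the 11.2% of span group 1 and 6.31% of group 2 (median span 10.8 kb). Hspa1b was at 1146 CPM in DPN and 2375 CPM in Control (0.482, 0.459 to 0.507), and its ratio lay between 0.37 and 0.57 in the comparison gates. Hspa1b has a near-identical copy, so its reads are uncertain. Cryab, a small chaperone of the lens, muscle and glia, was at 2488 CPM in DPN and 3430 CPM in Control (0.725), short of the fold.

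Metallothioneins, small proteins that bind zinc and copper, were among the lower genes. Mt3, best known from brain, was at 933 CPM (1859 UMIs) in DPN and 1783 CPM (3546 UMIs) in Control, a ratio of 0.523 (0.494 to 0.554). Mt1 was at 460 CPM in DPN and 716 CPM in Control (0.643, 0.591 to 0.699), and Mt2A at 140 CPM in DPN and 202 CPM in Control (0.693, 0.592 to 0.809), short of the fold. Mt3 was lower under every alternative tried, with ratios between 0.419 and 0.558. The call on Mt1 was lost in 2 of them, where its ratio was 0.94 with AY172581 counted as mitochondrial and 0.79 in the Drp2 and Gldn gate. Mt1 was lower across cell types, with 0.651 in satellite glia and 0.625 in Scn7a/Cdh19 SCs. Mt3 had 43.97 CPM in DPN and 18.7 CPM in Control in Scn7a/Cdh19 SCs, the opposite direction at a level far below that of myelinating SCs.

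The 3 metallothionein genes lie side by side on rat chromosome 19, and their promoters are shown because they share a motif. The 250 bases before each start site are from RefSeq (GRCr8, minus strand): Mt1 at chr19:10832976-10833225, Mt2A at chr19:10838709-10838958 and Mt3 at chr19:10856081-10856330. Capitals mark the metal response element core, searched as TGCACNC and TGCGCNC on both strands.
Mt1: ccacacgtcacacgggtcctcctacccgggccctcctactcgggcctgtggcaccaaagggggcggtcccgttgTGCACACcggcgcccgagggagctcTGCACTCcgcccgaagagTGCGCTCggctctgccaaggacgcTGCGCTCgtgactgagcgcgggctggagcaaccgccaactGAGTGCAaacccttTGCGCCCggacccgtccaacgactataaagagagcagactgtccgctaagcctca
Mt2A: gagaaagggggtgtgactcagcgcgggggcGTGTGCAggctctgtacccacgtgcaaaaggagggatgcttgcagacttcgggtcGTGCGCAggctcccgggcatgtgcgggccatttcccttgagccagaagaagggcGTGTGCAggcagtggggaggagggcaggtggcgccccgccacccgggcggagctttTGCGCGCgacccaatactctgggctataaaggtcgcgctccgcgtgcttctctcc
Mt3: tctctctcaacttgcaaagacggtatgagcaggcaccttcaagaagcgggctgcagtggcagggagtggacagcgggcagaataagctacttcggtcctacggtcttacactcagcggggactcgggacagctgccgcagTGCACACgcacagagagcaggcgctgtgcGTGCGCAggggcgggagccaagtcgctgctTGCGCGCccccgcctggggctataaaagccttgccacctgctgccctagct
The core matched 6 times before Mt1, 4 times before Mt2A and 3 times before Mt3. At least 1 match lay in 20.6% of 33469 rat promoter windows of this length, and at least 3 in 1.17%. A match of letters is a description and no binding was measured.

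Per cell, the fall in Mt3 was seen both in the share of cells and in the amount. After thinning, 59.4% of DPN and 69.7% of Control cells held an Mt3 UMI, with endothelial cells at 4.90% in DPN and 3.92% in Control. Before thinning, Mt3 was found in 68.9% of DPN and 75.6% of Control cells, Fxyd6 in 88.7% of DPN and 95.1% of Control cells, Drp2 in 73.1% of DPN and 62.2% of Control cells and Egr2 in 71.8% of DPN and 61.5% of Control cells. Thinned cells with 5 or more Mt3 UMIs were 12.3% in DPN and 27.3% in Control. Fxyd6 was found in 75.1% of DPN and 87.1% of Control cells (endothelial 1.32% in DPN and 0.839% in Control), and Drp2 in 49.9% of DPN and 34.7% of Control cells (endothelial 0.753% in DPN and 0.140% in Control). Egr2 was found in 54.6% of DPN and 35.8% of Control cells, with a higher background in endothelial cells of 13.1% in DPN and 11.5% in Control.

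**Figure D5:**
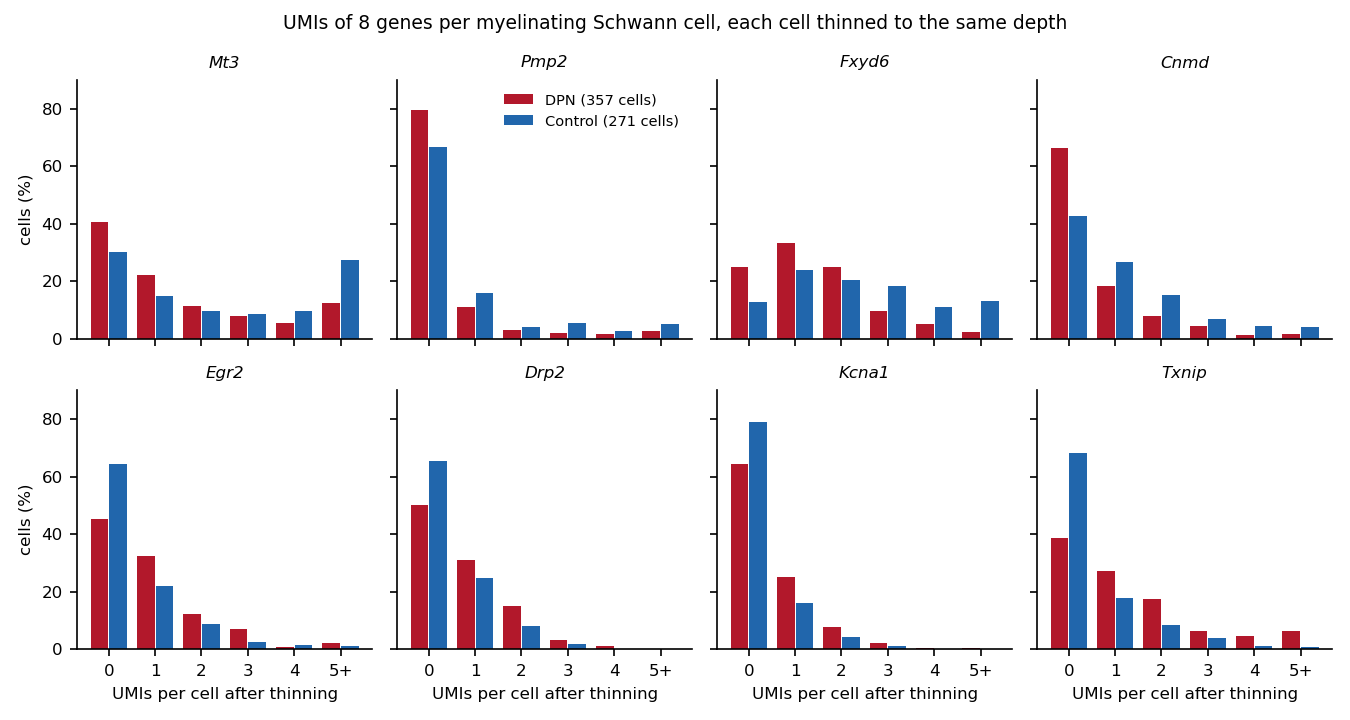
Percent of thinned myelinating SCs (vertical axis) by UMIs per cell at 2000 UMIs (horizontal axis) for 8 genes, DPN left of Control; the last bar stands for 5 or more. For Mt3, 12.3% of DPN and 27.3% of Control cells held 5 or more UMIs.

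The lowest ratios among called genes with 200 or more UMIs were those of Crym and Ptgds. Crym, a protein that binds thyroid hormone in the cytosol, was at 42.2 CPM (84 UMIs) in DPN and 139 CPM (277 UMIs) in Control, a ratio of 0.303 (0.234 to 0.388). It was 11.8-fold above every comparison gate and lower in each of the 14 alternatives that tested it. After thinning, Crym was found in 8.12% of DPN and 19.2% of Control cells, against 0.282% of DPN and 0.420% of Control endothelial cells. Without thinning, 16.9% of DPN and 39.2% of Control cells held it. Ptgds, prostaglandin D synthase, was at 290 CPM in DPN and 813 CPM in Control (0.356, 0.324 to 0.392). At the 10% mitochondrial limit its ratio was 0.113. Ptgds was at higher levels in satellite glia, with 827 CPM in DPN and 1730 CPM in Control, a ratio of 0.478. The other 7 satellite markers summed to 450 CPM in DPN and 572 CPM in Control in myelinating SCs, and their part in the Ptgds value was not tested.

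The other genes among the 12 lowest were of mixed function. Tubb4a, a tubulin of myelinating glia, was at 52.2 CPM in DPN and 100.1 CPM in Control (0.522). Cnmd, or chondromodulin, was at 367 CPM in DPN and 699 CPM in Control (0.526, 0.480 to 0.575), and found after thinning in 33.6% of DPN and 57.2% of Control cells (endothelial 0.942% in DPN and 1.68% in Control). Unthinned, Cnmd was in 47.5% of DPN and 69.6% of Control cells. It had ratios between 0.64 and 0.82 in the comparison gates. Timp1, an inhibitor of metalloproteinases, was at 290 CPM in DPN and 548 CPM in Control (0.528, 0.477 to 0.585). Idh2, the mitochondrial isocitrate dehydrogenase (0.527), Ddost of the oligosaccharyl transferase (0.544) and the mitochondrial import protein Pam16 (0.548) completed them.

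Clock genes were higher in 8 of 13 tested and lower in none, with a median log2 ratio of 0.68 and a median span of 26.3 kb, against 8.91% of span group 2 and 20.8% of group 3. The REV-ERB repressors Nr1d1 (73.8 CPM in DPN, 36.2 CPM in Control, 2.04, 1.53 to 2.74) and Nr1d2 (1.88) and the output factor Tef (60.7 CPM in DPN, 30.2 CPM in Control, 2.01, 1.47 to 2.79) led them. Ciart (1.79, from 43 UMIs in DPN and 24 in Control), Clock (1.65), Cry2 (1.62), Bhlhe40 (1.60) and Per3 (1.54) followed. Per3 lost its call in 7 of 14 alternatives, Ciart in 4 of 10, Bhlhe40 in 4 of 12, Cry2 in 3 of 15, Clock and Nr1d2 in 2 each and Tef in 1. The median of the clock list in the comparison gates lay between 0.59 and 0.87. No source used here gives the hour at which each pool was taken. With 1 pool each, the condition and the hour of collection cannot be told apart for these genes. Tsc22d3 (GILZ), a target of glucocorticoids, was at 300.2 CPM in DPN and 174 CPM in Control (1.73, 1.51 to 1.98), against ratios of 0.878 to 1.24 in the comparison gates. The call on Tsc22d3 was lost in 3 alternatives.

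The promoters of Tef and Ciart are shown for the E-box CACGTG, the element read by Clock and its partner, in capitals. They are the 250 bases before the start site in RefSeq (GRCr8), Tef at chr7:115206577-115206826 on the plus strand and Ciart at chr2:186112247-186112496 on the minus strand.
Tef: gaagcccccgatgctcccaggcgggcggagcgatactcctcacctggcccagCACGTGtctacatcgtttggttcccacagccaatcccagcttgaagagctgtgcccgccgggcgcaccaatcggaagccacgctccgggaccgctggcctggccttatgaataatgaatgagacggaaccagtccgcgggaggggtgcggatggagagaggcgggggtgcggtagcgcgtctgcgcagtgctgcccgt
Ciart: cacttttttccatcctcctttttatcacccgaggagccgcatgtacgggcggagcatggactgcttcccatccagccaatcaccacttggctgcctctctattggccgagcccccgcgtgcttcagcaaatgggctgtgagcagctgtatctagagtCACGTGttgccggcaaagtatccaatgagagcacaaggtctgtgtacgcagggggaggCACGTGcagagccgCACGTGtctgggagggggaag
Tef held 1 match and Ciart 3. At least 1 match lay in 5.59% of 33469 rat promoter windows of this length and at least 3 in 0.0508%. Again the matches are letters only.

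Among called genes with 200 or more UMIs, neuronal transcripts had 3 of the 12 highest ratios. Nefm, a neurofilament subunit, was at 84.8 CPM (169 UMIs) in DPN and 24.6 CPM (49 UMIs) in Control (3.44, 2.49 to 4.83). Stmn2, a tubulin-binding protein of axons, was at 167 CPM in DPN and 52.3 CPM in Control (3.20, 2.56 to 4.02), and Prph, the intermediate filament of sensory neurons, at 144 CPM in DPN and 49.3 CPM in Control (2.91). A Stmn2 UMI was found after thinning in 31.4% of DPN and 9.59% of Control myelinating SCs and in 20.8% of DPN and 9.23% of Control endothelial cells, which should lack it. Unthinned, the Stmn2 share in myelinating SCs was 55.9% in DPN and 29.7% in Control. Its level was 162 CPM in DPN and 63.6 CPM in Control in Scn7a/Cdh19 SCs, and 83.4 CPM in DPN and 62.8 CPM in Control in endothelial cells. The part of free RNA in the Stmn2 difference was not tested.

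Scn7a, the sodium channel of nonmyelinating SCs, was at 85.3 CPM in DPN and 30.7 CPM in Control (2.78, 2.06 to 3.79). It was at 745 CPM in DPN and 311 CPM in Control in the Scn7a/Cdh19 SCs, a gate selected in part on Scn7a. In gates that did not require it, thinned cells with a Scn7a UMI were also more frequent in DPN. They were 31.4% in DPN and 10.5% in Control in satellite glia, and 41.3% in DPN and 22.7% in Control in Igfbp3/Nes/Fgf2 SCs. In endothelial cells they were 5.56% in DPN and 1.40% in Control. After thinning, the Scn7a ratio in myelinating SCs was 1.79. Among DPN cells its level was lower where the rule markers were higher. The Control cells held only 61 Scn7a UMIs over all bins, too few to read an order from them. The bins were cut on the rule's own markers, and no interval was computed per bin. Scn7a was at 136 CPM in DPN and 22.6 CPM in Control at 5 to 10 marker UMIs per 10000, 90.6 CPM in DPN and 33.5 CPM in Control at 10 to 20, and 41.6 CPM in DPN and 28.0 CPM in Control at 20 and over. The same bins held 74 DPN and 34 Control cells, 162 DPN and 164 Control cells, and 143 DPN and 85 Control cells. Mbp ran the other way, with 3348 CPM in DPN and 3900 CPM in Control in the lowest bin and 5383 CPM in DPN and 7036 CPM in Control in the highest. Drp2 was higher in DPN in each bin in level, with 277 CPM in DPN and 132 CPM in Control, 351 CPM in DPN and 208 CPM in Control, and 495 CPM in DPN and 256 CPM in Control.

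The remaining genes with the highest ratios at this minimum of UMIs were Actg1 (3.29, 2.39 to 4.62), a cytoskeletal actin with many near-identical copies whose reads are uncertain, and Myo9a (3.17), an unconventional myosin. Regulators of transcription and of RNA ends followed, the mediator subunit Med13 (2.94), the histone methyltransferase Kmt2a (2.89) and Pcf11 (2.67). The adaptor Shc4 (2.75) and the membrane protein Megf9 (2.65) completed them with Sptbn1.

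Variation among the cells was uneven by gene. With 2000 UMIs per cell, Apod, a lipocalin of nerve, had a variance over mean of 139 in DPN and 171 in Control, and 18 DPN cells held 90.2% of its UMIs and 14 Control cells 97.0%. Apoe (14.5 in DPN, 17.0 in Control), Fth1 (16.0 in DPN, 10.4 in Control) and Fos (12.7 in DPN, 20.8 in Control) were also among the most variable. Mbp was spread evenly by comparison, with a variance over mean of 2.26 in DPN and 2.92 in Control.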

How the data were processed

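DRG cells of DPN and Control rats were captured with 10x Genomics 3' chemistry, 1 library for each condition (5 rats pooled in each). The deposited files hold raw counts of UMIs for each gene in each barcode. The authors ran Cell Ranger (version 3.1.0 in the file header; the submitters' processing notes also name STAR). The genome build and the STAR version are not given in the sources used here. The study's methods name down-sampling of reads in Cell Ranger as a step taken where required, and do not say whether it was applied to these counts. Of 32623 gene identifiers, 147 symbols stood for more than 1 and their counts were added. Filtered barcodes had at least 500 UMIs in both libraries.

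Cells were selected as given in the report. Doublets were kept, and an alternative removed those scored against simulated doublets (1387 DPN and 970 Control barcodes of the libraries). Counts were summed over cells of a library, and DPN over Control ratios had exact conditional binomial intervals. A count model was not fitted, since 1 library per condition leaves no replicate spread. Genes had to have 50 summed UMIs. The ratio method was tested on simulated Poisson sums. These held counting error alone, with no spread between cells or rats. Named genes were the 12 highest and 12 lowest ratios among called genes of 200 or more UMIs found in 10% of the cells of a library (clone names and Mt- genes left out), genes the study names for SCs, the rule and unused markers, called members and the most abundant members of 24 gene lists (441 genes, 11 with no symbol in the files), the 15 genes most above the comparison gates, and the 10 most variable genes. The cells and lists were chosen with earlier results of these data known. Gene spans and promoters came from RefSeq (GRCr8). The span covered 5837 of the 6050 genes. In all 15 alternative settings were tried, 2 of them chosen after seeing the data. Python 3.11.15, numpy 2.4.6, scipy 1.17.1, pandas 2.3.3, scikit-learn 1.9.0 and matplotlib 3.10.9 were used. Some genes are not reported here.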

Additional observations from a re-analysis of the deposited data

Results flagged for a closer look

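Mt3 differed between cell types. Its ratio of DPN over Control was 0.523 in myelinating SCs and 2.35 (1.95 to 2.85) in Scn7a/Cdh19 SCs, where its level was 43.97 CPM in DPN and 18.7 CPM in Control. The difference between the ratios was not tested, since each condition was 1 library.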

How the results depend on the processing

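No paired analysis was possible, since each condition was 1 library from its own pool of rats. Of 98 named genes called in the myelinating SCs, 30 kept their call at a mitochondrial limit of 10%, 59 after thinning, and 67 to 98 under the other 13 settings. Of the 24 genes with the highest or lowest ratios, 14 kept it at the 10% limit, 22 after thinning, 21 in the gate on Drp2, Gldn and Pou3f1, and 24 elsewhere. The ratios that changed side were Angptl4, to 1.02 with cells weighted equally and 1.13 without the deepest 5% of cells, Bag3 to 1.04 at the 10% limit and Sel1l to 0.966 after thinning. Main counts of genes higher and lower were 1115 and 330. Median-ratio scaling gave 900 and 544, thinning 450 and 198, the 10% limit 174 and 132 (of 1506 tested, from 54 DPN and 62 Control cells), a minimum of 200 UMIs 330 and 144, no minimum 1719 higher, and the gate on Drp2, Gldn and Pou3f1 1815 higher. The share of cells (3.44% in DPN and 2.89% in Control) became 2.77% in DPN and 2.54% in Control at a marker level of 10, 9.25% in DPN and 7.07% in Control in the gate on Drp2, Gldn and Pou3f1, 2.09% in DPN and 1.76% in Control without mixed barcodes, and 2.40% in DPN and 1.60% in Control in the Drp2 and Gldn gate. Most cells of the gate on Drp2, Gldn and Pou3f1 lay outside the main selection. The share became 1.61% in DPN and 2.60% in Control at the 10% limit, and 2.66% in DPN and 2.80% in Control with AY172581 counted as mitochondrial, so its order was not kept. The cause was not tested beyond the smaller number of cells or genes. Depth limits the genes under 50 UMIs, which were not called.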
